A study of Macaca fascicularis with 6 samples.

Results

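Incomplete-match isoforms (ISM) are transcripts whose splice junctions match only a stretch of an annotated transcript, so that exons at the 5′ or 3′ end of the annotated form are missing. They were chosen by their class and their counts, as every isoform row marked ISM with at least 10 counts summed over 3 isoform tables of corneal cells. This gave 5767 isoforms of 3014 genes, out of 41922 isoforms of 10390 genes and out of 8705 ISM rows in all. The 2938 ISM rows left out held 3.27% of ISM counts. At the edge of the rule, 707 members held 10 to 12 counts and 793 rows left out held 7 to 9. A member held a median of 31 counts over the 3 tables, and 42 members held 1000 or more.

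The cells came from corneas of wild-type (WT) cynomolgus monkeys (Macaca fascicularis) that were uninjured or were sampled 1 or 3 days after a corneal injury, with 2 samples in each group. The cells were captured in 10x Genomics droplets, and their full-length cDNA was sequenced by HIT-scISOseq, in which long reads span whole transcripts cell by cell. Neither the kind of injury nor the animals' age is stated, nor whether replicates were separate animals, so a p-value below measures the spread between samples, which may be technical. The isoform tables of both uninjured samples and of 1 day 1 sample share a naming system that marks ISM in known genes. They carry every ISM result. The other day 1 sample and both day 3 samples enter through their gene tables. In the day 1 tests of ISM shares and isoforms, the spread is therefore that between the 2 uninjured samples.

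A full splice match (FSM) carries all junctions of an annotated transcript, while the classes NIC and NNC join known splice sites in other ways or use unannotated ones. An ISM can be a real short transcript, made from an inner start site or an early polyadenylation site. It can also be a copy of a longer RNA that was broken or not copied to its end, and a junction class alone cannot separate these. The reference annotation matters too, since a transcript annotated with an end that cells do not use turns all reads of a gene into partial matches. No sequence or genome position was used here, so the lost end of each isoform is not given.

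The 3 isoform tables held 2591000, 3102684 and 3197566 counts over 1565, 1417 and 1482 barcodes, with 0 barcodes shared between them. Corneal epithelial keratins and other differentiated markers were high in all 3 samples, with a summed level of 36860, 37010 and 32010 CPM (counts scaled to a common library size) over 11 genes. The 5 limbal markers summed to 5962 and 5419 CPM in the uninjured samples and 582 CPM at day 1, and the 9 basal markers to 15210, 14820 and 7532 CPM. The 8 keratocyte markers summed to 643, 499.8 and 189 CPM. Of 7 listed immune markers 6 were present, and they summed to 154, 197 and 229 CPM. In summed counts, fewer cells of a type and less RNA per cell cannot be told apart. The part of these marker shifts in the ISM results was not tested; values within cell classes are given below.

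ISM members held 5.90% of isoform counts in uninjured replicate 1, 5.77% in uninjured replicate 2 and 5.64% in the day 1 sample. Their 95% Wilson intervals, which cover counting error only, ran from 5.87% to 5.93%, from 5.74% to 5.79% and from 5.61% to 5.66%. The day 1 sample was the lowest of the 3, but 2 samples against 1 cannot give an exact permutation p below 0.333. Over all rows of a class, with no lower bound on counts, FSM isoforms held between 61.2% and 62.6% of counts. NNC held between 25.3% and 26.6%, NIC between 6.09% and 6.14% and ISM between 5.91% and 6.03%. Of the 5767 members, 3704 were counted in all 3 tables, 1755 in 2 and 308 in 1. Rows with under 5 counts made up only 1.71%, 1.04% and 2.96% of these tables, so an isoform listed at 0 may have held a few counts before deposit.

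The counts were uneven over genes. GPX1, RPL9 and RPLP0 alone held 13.9% of member counts, and the 10 leading genes held 20.4%. At the other end 1841 genes had 1 member each. There were 203 genes with 5 or more members, and DSP, which encodes the desmosomal plaque protein desmoplakin, had the most with 34.

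Dominance by ISM was then described gene by gene, as the ISM share of all isoform counts of a gene. Among 2546 genes with at least 100 isoform counts in each of the 3 tables, 1095 had a member, and the mean ISM share was under 5% in 445 of them, from 5% to under 50% in 465 and at least 50% in 185. In 70 genes the mean share was at least 90%. A share of at least 50% in each table was found for 166 genes (6.52% of the 2546), which together held 41.8% of all member counts. Nearest to this bound were DSC3 and PSME4 inside, with lowest shares of 50.3% and 50.8%, and EBP and RTF1 outside, with 49.8% and 49.6%. These shares chose the genes and are given as a description with no test.

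GPX1, a selenoprotein that reduces hydrogen peroxide with glutathione, was nearly all ISM, and 13 other dominated genes had a share of 100% in each table. ISM made up 6061 of 6065 GPX1 isoform counts in uninjured replicate 1 (99.9%), 7421 of 7431 in uninjured replicate 2 (99.9%) and 9883 of 9894 at day 1 (99.9%). The isoform PB.35163.5040 held 99.5% of them, and no FSM isoform of GPX1 was counted. RPL9, a protein of the large ribosomal subunit, had ISM shares of 98.9%, 98.8% and 98.1%, spread over 5 members of which PB.47150.204 held 71.1%. RPLP0, which forms the base of the ribosomal stalk, had 97.2%, 98.5% and 95.6%, all from 1 member. The RPLP0 rows held only 49.1% of the gene's gene-table counts in uninjured replicate 1 and 49.1% at day 1, against 92.5% in uninjured replicate 2.

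Near-complete dominance was found in genes of other roles too. The motor protein gene KIF5B, a kinesin heavy chain, had ISM shares of 99.4%, 99.5% and 98.3% over 11 members. WASL, which encodes the actin nucleation promoter N-WASP, had 99.0%, 100% and 98.4%. EPHA2, an ephrin receptor tyrosine kinase of epithelia, had 89.5%, 90.9% and 94.1% from a single ISM isoform. In these 3 genes the samples lay within 5 points of each other.

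Other dominated genes were divided between ISM and other classes. The cytosolic chaperone HSP90AA1 had ISM shares of 57.4%, 55.9% and 54.3%, and its sister HSP90AB1 had 56.2%, 56.8% and 54.5%. The desmosomal cadherin DSG1 had 59.0%, 58.5% and 60.4% over 15 members, and the 14-3-3 protein YWHAZ 72.6%, 73.9% and 75.5%. The differences between uninjured and day 1 values in these 4 genes were small, and none passed the test given below (edgeR adjusted p from 0.584 to 0.792).

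**Figure D1:**
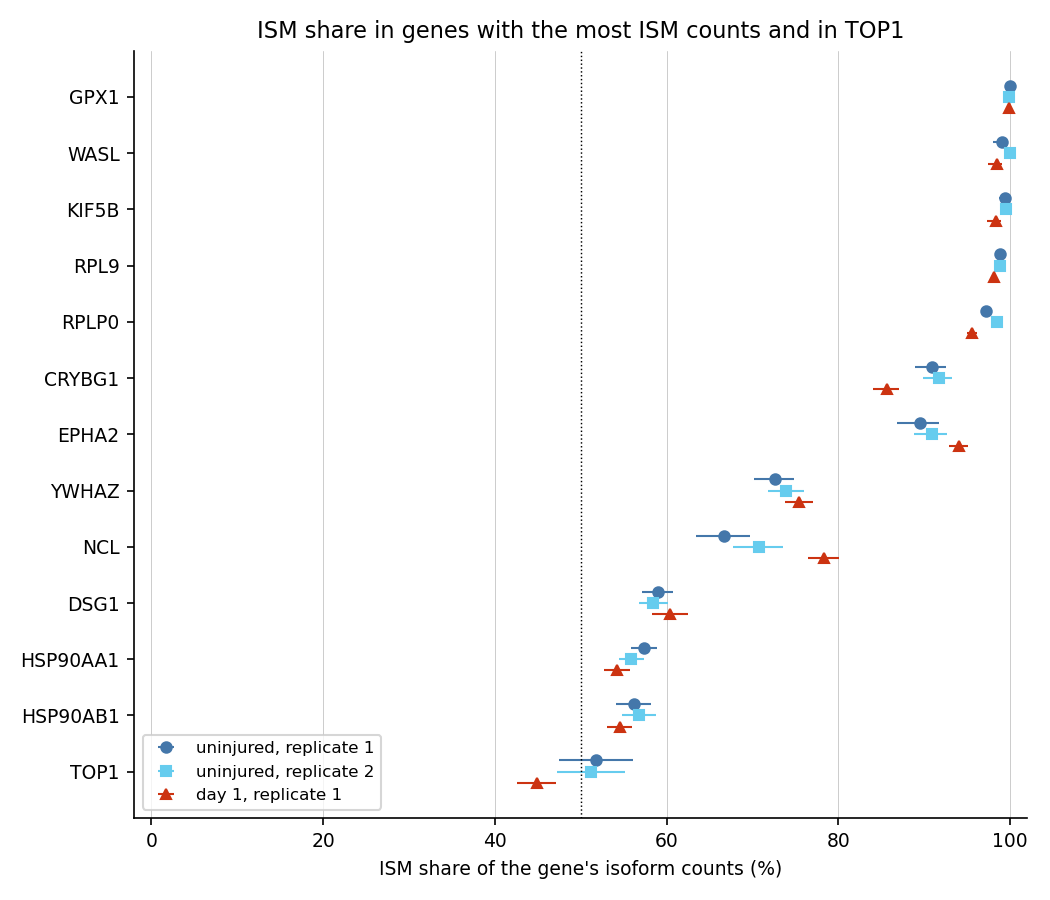
ISM share of isoform counts (x axis, %) in the 12 genes with the most ISM counts among those with a share of at least 50% in each table, and in TOP1. Points are samples, bars are 95% Wilson intervals and the dotted line marks 50%. GPX1, WASL, KIF5B, RPL9 and RPLP0 lie at 95.6% or above in every sample, while TOP1 lies at 51.8% and 51.2% in the uninjured samples and 44.9% at day 1.

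The choice of dominated genes leaves at most 50% of counts to all other classes, and within that limit most had no full match at all. Of the 166 genes, 122 (73.5%) had no FSM count in any of the 3 tables, a description with no test, since FSM and ISM shares add up to at most 100%. In all 2546 well-covered genes, 560 had none (22.0%). In the 166 genes ISM held 84.7% of pooled counts, and the median NIC and NNC share was 7.29%. The number of ISM forms differed widely. A single isoform held at least 90% of ISM counts in 66 genes, and in 40 genes the leading isoform held under 50%. Shares were close between samples, with a median difference of 2.17 points between the uninjured tables and of 2.58 points between day 1 and the uninjured mean.

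TOP1, which encodes DNA topoisomerase I, the enzyme that relieves supercoils ahead of polymerases, fell just outside this set. ISM made up 265 of 512 TOP1 counts in uninjured replicate 1 (51.8%), 312 of 609 in uninjured replicate 2 (51.2%) and 817 of 1821 at day 1 (44.9%). ISM thus held the larger part of TOP1 counts in both uninjured samples and the smaller part at day 1. The lower share at day 1 did not pass the test (log2 odds change -0.38, edgeR adjusted p = 0.202). The gene itself rose, from 168 and 165 CPM in the uninjured gene tables to 616 and 564 CPM at day 1 and 197 and 201 CPM at day 3, with a log2 change of 1.82 ± 0.08 (SE) at day 1 and an edgeR adjusted p of 6.7e-09. All day 1 values lay above all others.

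The 11 ISM forms of TOP1 did not move together. PB.2432.2, the most abundant, held 119 and 112 counts in the uninjured samples and 457 at day 1, with a log2 change of 2.01 ± 0.17 (SE) and an edgeR adjusted p of 8.1e-06. PB.2432.7 rose alike, from 32 and 39 counts to 136. PB.2432.169 went the other way, from 64 and 80 counts to 28, with a log2 change of -1.32 ± 0.25 (SE) and an edgeR adjusted p of 0.00201. This difference between the forms was not itself tested. In the same samples the FSM isoform PB.2432.15 went from 199 and 227 counts to 779.

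Gene lists, chosen with earlier results of these data known, were read against the 6.52% of dominated genes and the median share of 0% over all well-covered genes. The highest part was in topoisomerases and chromatin enzymes, where 3 of 4 well-covered genes were dominated. The well-covered gene of that list that was not dominated was TOP1. ARID1A, a subunit of the BAF remodelling complex, had only ISM counts in all 3 tables (380, 466 and 293 counts, 100%). SMARCA4, the ATPase of that complex, had shares of 100%, 94.0% and 95.4%. The chromatin remodeller ATRX had 79.4%, 67.6% and 58.6%.

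Genes of very large proteins came next, with 6 of 12 well-covered members dominated and a pooled ISM share of 43.2%. The cytolinker periplakin (PPL) had 99.1%, 100% and 100%, all from 1 isoform. NOTCH2, a Notch receptor, had 97.3%, 95.7% and 94.6%, and the dynein heavy chain DYNC1H1 had 82.6%, 83.6% and 82.7%. DST, the hemidesmosomal cytolinker dystonin, had 63.8%, 58.7% and 55.0% over 29 members. None of the 14 list genes tested had a called change in share at day 1.

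Housekeeping lists were lower than those of topoisomerases and chromatin enzymes and of very large proteins. Chaperones (23.1%) and splicing regulators (10.7%) still lay above the 6.52% of all well-covered genes. Ribosomal proteins (4.5%), proteasome (0%) and oxidative phosphorylation (0%) lay below it. Among the chaperones listed, 3 of 13 well-covered genes were dominated, HSP90AA1, HSP90AB1 and HSP90B1, the last at 75.7%, 72.3% and 69.3%. The lists do not hold every gene of their kind: the chaperone DNAJB6, dominated with 89.5%, 89.9% and 90.1%, was outside the list. Among the splicing regulators listed, 3 of 28 were dominated (RBM25, SON and SRRM2), and the list's median share was 6.87%; SFPQ and the spliceosome gene PRPF8 were dominated outside it. RPLP0 alone was dominated among the 22 well-covered ribosomal protein genes of the list, which does not hold RPL9. Among proteasome genes 0 of 20 were dominated, as were 0 of 5 in oxidative phosphorylation, a list in which no gene had a member. The abundant corneal keratins were mostly of the other classes, with KRT12 at 1.14%, 1.08% and 1.58% and KRT3 at 4.36%, 4.18% and 5.76% ISM.

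A small isoform share of a gene's counts limits some of these values. S100A6, FTH1 and KRT6A had isoform rows for at most 2.92% of their gene-table counts in the 3 tables. Their ISM shares therefore describe a small slice of the gene. For the 134 dominated genes with at least 100 gene-table counts in each sample, isoform rows covered a median of 56.6%, 60.3% and 58.7% of gene counts. For 1089 genes with no member they covered 82.8%, 82.8% and 81.1%.

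The other isoform tables, named with Ensembl transcripts, did not place ISM in known genes, and dominated genes were often missing there. Under 10% of gene counts was found for 54, 56 and 54 of the 134 dominated genes in the second day 1 sample and both day 3 samples, against 2 of 134 in each of the 3 ISM-bearing tables. For the genes with no member the numbers were 186, 189 and 188 of 1089 against 2, 3 and 1. For GPX1, isoform rows covered 94.5%, 94.5% and 93.7% of gene counts in the 3 ISM-bearing tables and at most 0.167% in the others, although the gene itself stood at 2263 CPM or more in those samples. RPL9, TJP1 and EPHA2 had no isoform count there. HSP90AA1, DSG1 and TOP1 kept at least 78.7% of their gene counts in those tables. The day 1 ISM comparisons below therefore rest on 1 day 1 sample.

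**Figure D2:**
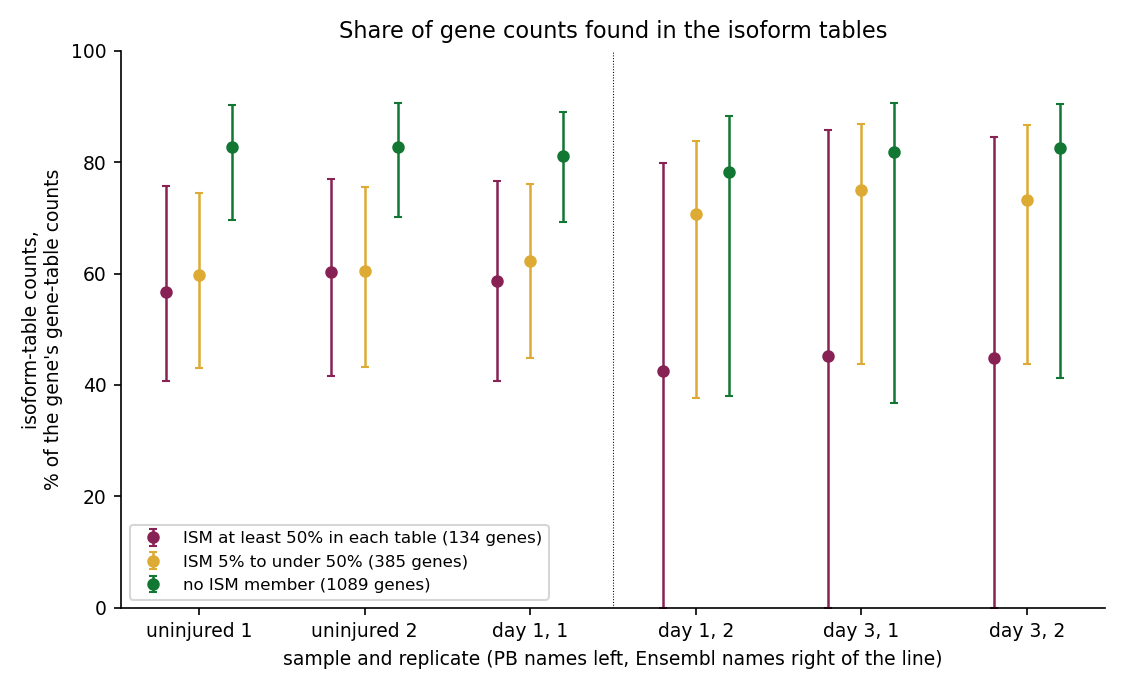
Counts in the isoform table as a percentage of counts in the gene table, over barcodes in both (y axis), for each sample (x axis). Points are medians over genes and bars the quartiles, for 134 dominated genes, 385 genes with a share of 5% to under 50% and 1089 genes with no member. In the 3 tables with Ensembl names the dominated genes fall to medians of 42.5%, 45.2% and 44.9%, with a lower quartile of 0%.

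The ISM share was next compared between the day 1 sample and the uninjured samples, to see which genes shifted between ISM and other isoforms. The test was edgeR's quasi-likelihood splicing test on ISM against all other isoforms of a gene, in which the lone day 1 sample is assumed to vary like the uninjured ones. Of 1799 genes tested, 137 passed an adjusted p of 0.05 (7.62%), 43 with a higher (2.39%) and 94 with a lower ISM share at day 1 (5.23%). ISM was listed at 0 in both uninjured samples in 7 of the genes called higher, and at 0 at day 1 in 17 of those called lower. Such a 0 may hide a few counts, and these members reached 10 counts only through the group where they are high. Their calls are a description only. The median difference over the genes tested was -0.345 points. The remaining 1215 genes with a member were too low to test. Among dominated genes 11 of 132 tested were called (8.33%, a share near that background), 4 higher and 7 lower.

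Of the 137 called genes, 114 had at least 50 counts in each sample and no overlap between groups, 33 higher and 81 lower. The call itself favours such separation. No such number over all 1799 genes tested is given, so it is a description only. The largest falls were in NRM and TJP1. TJP1, the tight junction scaffold ZO-1, had ISM shares of 67.9% (167 of 246 counts) and 64.9% (211 of 325) in the uninjured samples and 29.4% (146 of 497) at day 1. Both uninjured values lay more than 30 points above the day 1 value, and the log2 odds changed by -2.23 (edgeR adjusted p = 0.00367). NRM, a protein of the inner nuclear membrane, had 54.9%, 62.1% and 7.44%, although its isoform rows held more counts than its gene row (from 109% to 198% of it).

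TJP1 had no FSM count, and its ISM was 1 isoform, PB.54168.868. That isoform stood at 61.5 and 67.3 CPM in the uninjured samples and 51.1 CPM at day 1 and did not pass the isoform test (log2 change -0.34 ± 0.17 (SE), edgeR adjusted p = 0.138). Its other isoforms together stood at 29.1, 36.4 and 123 CPM, and the NNC isoform PB.54168.87 went from 74 and 97 counts to 272. The gene rose from 81.5 and 85.0 CPM to 188 and 177 CPM at day 1 (log2 change 1.13 ± 0.08 (SE), edgeR adjusted p = 2.0e-07). The TJP1 share was lower at day 1 within each class of cells as well, at 56.8% and 62.2% against 29.1% in basal/limbal-like, 65.9% and 59.8% against 33.1% in differentiated-like and 78.6% and 75.9% against 23.8% in conjunctival-like cells.

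The levels behind the share were then split for the 94 genes with a lower share, whose choice itself favours lower ISM and higher other isoforms. Summed ISM CPM at day 1 lay below both uninjured values in 70 of them, and summed CPM of the other isoforms lay above both in 72, with both true in 48. ISM was thus below both uninjured values in most of them, and in 20 it was above both. Over all 1799 genes tested for share, ISM lay below both uninjured values in 783 and above both in 764. In the same 1799 genes the other isoforms lay above both in 885, with ISM below and the others above in 176. MXD1, a partner of MAX that opposes MYC, fell from 34.7% and 25.7% to 5.87%, with ISM at 19.2, 14.4 and 18.2 CPM and other isoforms at 36.1, 41.5 and 292 CPM. Its ISM level at day 1 thus lay between the uninjured values while its other isoforms lay far above. As genes, 62 of the 94 rose at day 1 (66%) and 16 fell (17%), against 49.0% and 24.8% of all 1799 genes tested for share. With library totals in place of TMM scaling, 44 rose and 24 fell, against 31.2% and 40.9%.

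Other large falls were in genes of varied roles. DOCK1, an activator of the GTPase RAC, went from 74.1% and 77.1% to 46.0%, and EPB41L5, a FERM-domain protein, from 36.9% and 32.5% to 6.90%. The coatomer subunit COPZ1 went from 47.7% and 53.4% to 24.0%, and the endocytic adaptor EHBP1 from 86.5% and 84.8% to 60.7%. The ubiquitin ligase UBE3C went from 81.0% and 83.5% to 55.2%. Each of these was separated between groups, as the choice required, and had an edgeR adjusted p between 0.0252 and 0.0475.

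Rises were fewer. PCIF1, which methylates the cap-adjacent adenosine of mRNA, had 0 of 72 and 0 of 50 ISM counts in the uninjured samples and 20 of 63 (31.7%) at day 1. Its ISM form became a member through the day 1 sample alone, so this rise is a description only. GRK2, a kinase of G protein-coupled receptors, went from 65.1% and 64.6% to 89.0%, and ZNF414 from 48.8% and 52.2% to 80.0%. ZXDC went from 33.7% and 32.9% to 64.1%, DENND4A from 36.0% and 38.9% to 60.6%, PANK2 from 8.40% and 12.4% to 32.3% and COA1 from 6.96% and 0% to 26.4%. All 7 were separated between groups, as the choice required, with edgeR adjusted p values between 0.0297 and 0.0447. Another gene of this rank has only an identifier. With the count filter loosened to at least 10 counts of both features, or dropped, 23 and 22 genes passed in place of 137, and the 5 falls of the paragraph before and these 7 rises were not among them.

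A narrower group kept its call and direction under every one of the 8 other processing settings. It held 19 of the 137 genes, 15 lower and 4 higher. With NRM, TJP1 and MXD1, the lower ones included the complement regulator CD55 (32.4% and 31.3% to 10.1%), the oxidase XDH (30.7% and 27.7% to 7.47%), the phosphatase subunit PPP1CB (50.9% and 50.6% to 28.1%) and the elongation factor ELL2 (37.9% and 31.7% to 13.3%). They also included NABP1, a single-strand DNA-binding protein (25.5% and 28.0% to 8.08%), the stress factor ATF4 (9.06% and 12.3% to 1.47%) and the lamin gene LMNA (7.04% and 6.68% to 2.66%). In CD55, ISM stood at 79.6, 85.2 and 77.0 CPM while other isoforms stood at 166, 187 and 686 CPM. XDH differed, since both its ISM (77.0, 68.0 and 7.35 CPM) and its other isoforms (174, 177 and 91.0 CPM) were lower at day 1.

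Among the 4 higher genes of that group, SEC62, a component of the protein channel of the endoplasmic reticulum, went from 2.5% (9 of 360) and 1.84% (7 of 380) to 14.4% (120 of 835). Its ISM stood at 3.32, 2.23 and 42.0 CPM. The tight junction claudin CLDN1 went from 1.51% and 1.35% to 3.92% and the glutathione transferase GSTP1 from 0.344% and 0.313% to 1.03%. The gene CPM, which encodes carboxypeptidase M, went from 44.2% and 50.9% to 79.9%, on 43, 53 and 1373 isoform counts. These 4 genes had separated groups, and they and the genes in the paragraph before were picked after their values were seen.

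**Figure D3:**
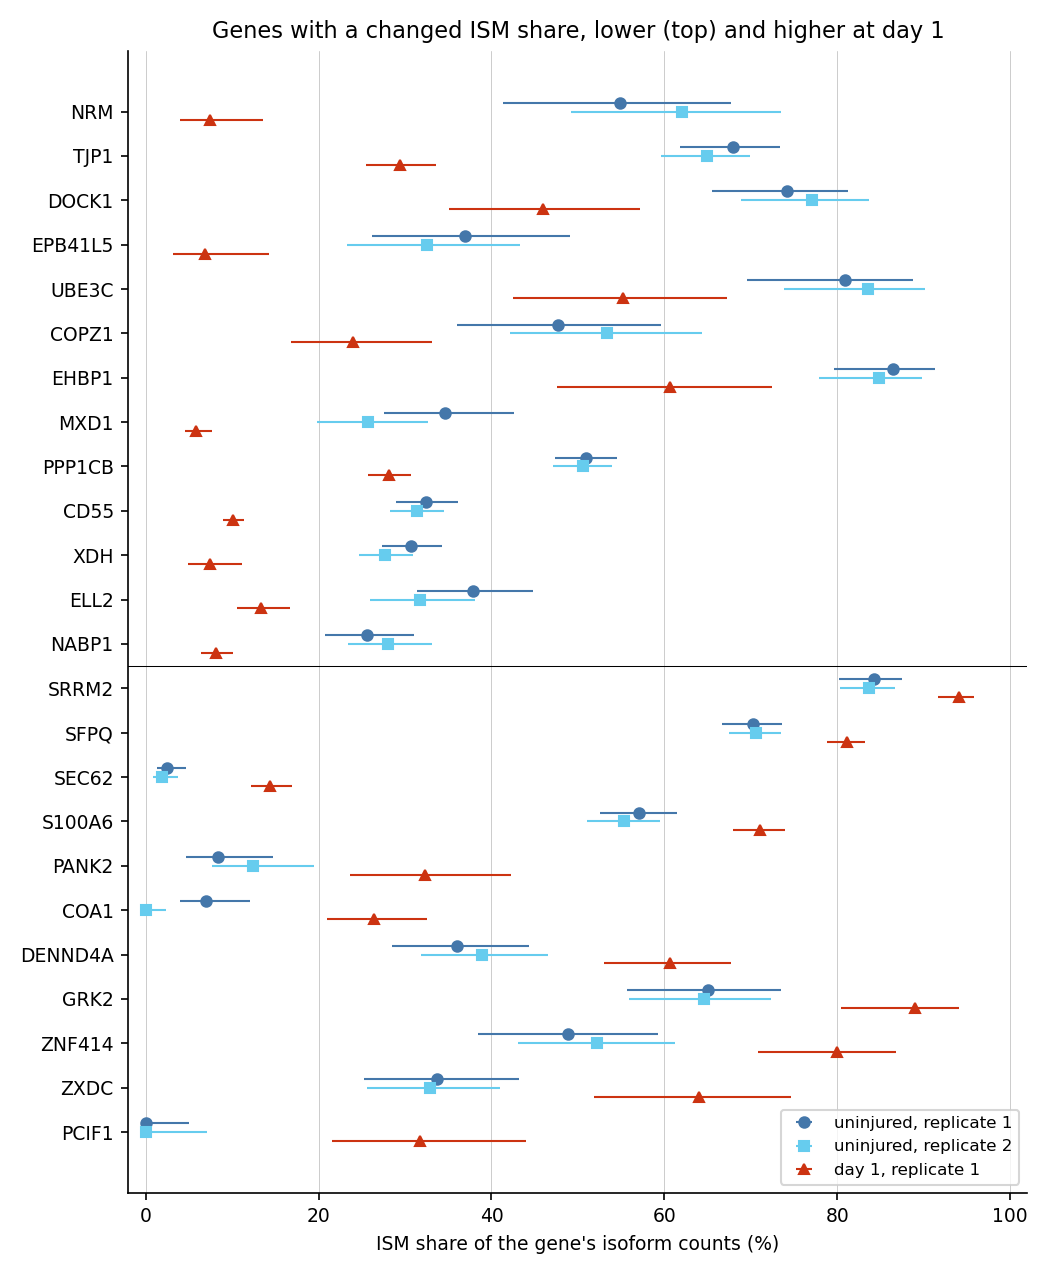
ISM share (x axis, %) of 24 genes with a called change, 13 lower at day 1 above the line and 11 higher below it. Points are samples and bars 95% Wilson intervals. TJP1 stands at 67.9% and 64.9% uninjured and 29.4% at day 1. In each gene drawn the day 1 point lies outside the range of the uninjured points, an order that the choice of genes favours.

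Of 21 listed splicing regulators tested, 1 was called higher, 1 lower and 19 not, a share of calls near the 7.62% of all genes. SRRM2, a scaffold of nuclear speckles, of the list, rose from 84.2% and 83.7% to 94.1% (edgeR adjusted p = 0.0285). PTBP1, a repressor of exon inclusion in the list, fell from 18.6% and 13.3% to 5.51% (edgeR adjusted p = 0.0239). SFPQ, a paraspeckle protein outside the list that was picked after its values were seen, rose from 70.3% and 70.6% to 81.1% (edgeR adjusted p = 0.0424). These 3 calls were also lost with the loosened filters. In desmosomes and tight junctions 1 of 12 tested was called higher (CLDN1) and 3 lower (TJP1, CLDN7 and PKP1), and in translation factors 0 of 11 were called higher and 3 lower (EIF4A1, EIF4G2 and EIF5), against 2.39% higher and 5.23% lower over all genes tested. Of these 7 genes, CLDN1 and TJP1 kept their call in all 8 other settings and the others did not.

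**Figure D4:**
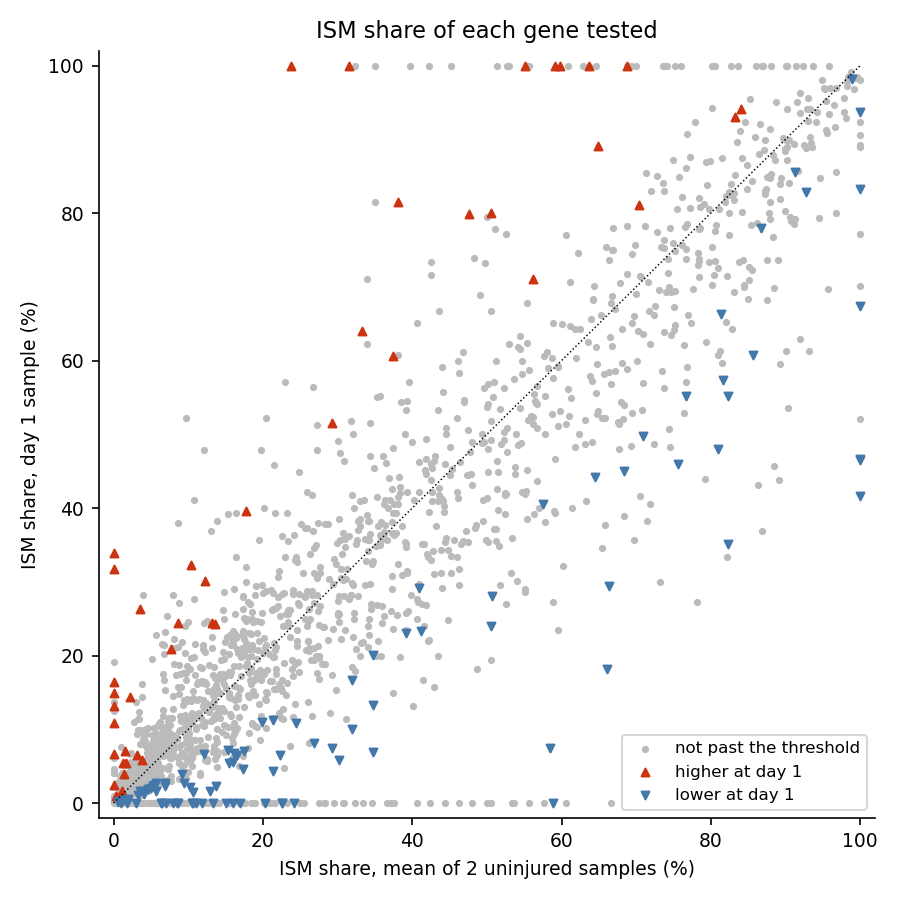
ISM share of 1775 tested genes in the uninjured samples (x axis, mean of 2, %) and in the day 1 sample (y axis, %). Another 24 tested genes lacked counts in 1 sample. Triangles are the 43 genes called higher and the 94 called lower, and the dotted line marks equal shares; most genes lie near it, and points on the lower edge are listed at 0 at day 1.

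At the level of single isoforms, 1228 of 4117 members tested changed between day 1 and uninjured (29.8%), 588 up and 640 down. The background over all 23690 isoforms tested was 35.5% (16.9% higher and 18.5% lower), with 40.7% of FSM, 32.6% of NIC and 34.3% of NNC isoforms called. The 1650 members not tested were too low. The balance of calls up and down also moved with the setting, and calls up outnumbered calls down with RLE scaling. These calls depend on the tool and filter, since DESeq2 called 46 members (291 at an unadjusted p under 0.05) and edgeR with no filter called 0 of 5767 (1743 unadjusted, lowest adjusted p = 0.0594). The largest rises were of forms listed at 0 in both uninjured samples. These were PLA2G4E with 111 counts at day 1, PIGR with 72, KRT6A with 65, EHD4 with 61 and SLCO2A1 with 49. PIGR is the transport receptor for secreted antibodies and KRT6A a wound keratin. Since few rows under 5 counts are listed, no fold is given against a value of 0. Each of these forms became a member through its day 1 counts alone, so its rise is a description only.

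The largest falls were of forms listed at 0 at day 1. Both ISM forms named for SLC7A2, a cationic amino acid transporter, went from 65 and 81 counts and from 35 and 48 counts to 0. A DST form went from 56 and 59 counts, an ARHGEF28 form from 45 and 41 and a CCDC34 form from 24 and 59. All of these forms became members through their uninjured counts alone, so their falls are a description too. DST itself fell in the gene tables with a log2 change of -1.94.

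Host genes of ISM were often changed themselves. Of 2973 host genes tested in the gene tables, 2090 passed at day 1 (70.3%), 1265 up and 825 down, against 62.2% of all 12294 genes. With library totals in place of TMM scaling the split was 805 up and 1306 down, since that scaling moves the median log2 change of all genes by -0.34. At day 3, 1832 passed (61.6%) against 55.2% of all genes. Day 1 and day 3 share the uninjured samples.

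Cell states were compared last. Classes were rebuilt from clusters of the gene tables with marker lists, with basal and limbal markers naming 1 class together. This gave 855, 704 and 570 basal/limbal-like barcodes, 466, 438 and 615 differentiated-like barcodes and 233, 249 and 286 conjunctival-like barcodes in the 2 uninjured samples and the day 1 sample. Cluster 0, led by GPHA2 and with limbal markers ahead of basal ones, held 637 and 520 of the basal/limbal-like barcodes in the uninjured samples and 24 at day 1. Cluster 3, led by SYNE1 and basal by its markers, held 217, 175 and 191, and cluster 5, led by MMP1 and also basal, joined at day 1. Cluster 2, led by CYP26A1, held the differentiated-like class in uninjured samples and cluster 1, led by MUC22, at day 1. The conjunctival-like class was cluster 9 in uninjured samples and cluster 7 at day 1. Of the 11 listed conjunctival markers only 5 were present, so that class was named on those.

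The overall ISM share in basal/limbal-like cells was 5.79%, 5.63% and 5.91% in the same order, and in differentiated-like cells 6.01%, 5.92% and 5.86%. Basal-like cells were lower in both uninjured samples and higher at day 1. In conjunctival-like cells the share was 5.88%, 5.63% and 4.97%, with the day 1 value below both others. Median gene counts per barcode were 1735, 1889 and 2314 in basal/limbal-like cells and 3576, 4553 and 3586 in differentiated-like cells.

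Within genes, differences between the classes were few and mostly one way. Of 844 genes tested with sample as a block, 22 passed (2.61%), 21 with a higher ISM share in basal/limbal-like cells (2.49%) and 1, UBE2B, with a lower one (0.118%). In 20 of the 22 all 3 samples had the same direction, which the call itself favours, and no such number over all 844 genes is given. The calls rest on both uninjured samples. In edgeR, 0 genes passed without uninjured replicate 1, without uninjured replicate 2 or without the sample block, where 63, 53 and 40 genes had an unadjusted p under 0.05. Without the day 1 sample 109 genes passed, and these held 21 of the 22. With cluster 0 left out of the class, an alternative added after seeing the data, 0 of 819 genes passed (106 at an unadjusted p under 0.05, lowest adjusted p = 0.0706), with no change of sign among the 19 of the 22 that had a value.

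NCL, the nucleolar protein nucleolin, had ISM shares of 72.3%, 79.2% and 83.1% in basal/limbal-like cells and 60.1%, 63.3% and 72.1% in differentiated-like cells (log2 odds difference 0.94, edgeR adjusted p = 0.0398). IFRD1 had 73.3%, 70.9% and 52.7% against 49.3%, 51.3% and 39.0%. SNRPB2, a protein of the U2 spliceosomal particle, had 26.6%, 23.8% and 32.9% against 12.5%, 9.74% and 10.9%. These genes were picked for classes that did not overlap, so the higher share of every sample in its basal/limbal-like cells follows from the choice.

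The other genes named by size were picked by the same rule, which fixes the same order. GRB7, an adaptor of receptor tyrosine kinases, had 23.5%, 27.0% and 9.27% against 1.00%, 8.18% and 2.49% (log2 odds difference 2.43, edgeR adjusted p = 0.00931). BAIAP2, which bends membranes at actin protrusions, had 47.7%, 50.4% and 56.9% against 35.6%, 27.9% and 34.8%. EMP1 had 25.1%, 14.6% and 11.3% against 8.79%, 5.33% and 8.61%, and HNRNPA2B1 had 8.26%, 9.39% and 8.87% against 5.52%, 3.29% and 6.0%. The readthrough gene FMC1-LUC7L2 had 29.4%, 38.3% and 33.5% against 22.2%, 21.7% and 18.4%.

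Both comparisons, which use the same samples, called 8 genes, out of 88 called by day and tested by class. Over all 844 genes tested by class, 22 were called (2.61%). Among the 8 were NABP1, MXD1, IFRD1 and SAT1, in all of which the share was also lower at day 1. NABP1 had 63.2% and 59.2% ISM in uninjured basal/limbal-like cells, 11.5% and 15.7% in uninjured differentiated-like cells and 19.4% and 6.39% in these classes at day 1. MXD1 had 52.3% and 35.6%, 24.6% and 19.8%, and 12.1% and 4.31% in the same order. The day 1 values of both genes were thus lower within each class, which their call by day favours.

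Across the 137 genes called by day, 95 had at least 20 counts in each sample and class. In 90 of these the day 1 share lay outside the uninjured values in the called direction in both basal/limbal-like and differentiated-like cells, and in 0 did either class go the opposite way. These classes lie in different clusters at day 1. Such agreement is favoured by the choice, since the counts of these classes and of cluster 3 also gave the calls. No such number over all genes tested is given, so it is a description only. Cluster 3, with at least 175 barcodes in every sample, gave 63 of the 137 genes at least 20 counts in each sample, and in 57 of them the day 1 share lay outside the uninjured values in the called direction. It lay between or level with them in IRF1, PDLIM1, RAC1 and TMEM40 and on the opposite side in GSTP1 and SSU72. GSTP1, called higher above, had 0.645%, 0.154% and 0.135% in that cluster. TOP1 followed a like order without a call, with 58.8%, 57.4% and 49.2% in basal/limbal-like cells and 47.5%, 47.1% and 43.9% in differentiated-like cells (edgeR adjusted p = 0.411).

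**Figure D5:**
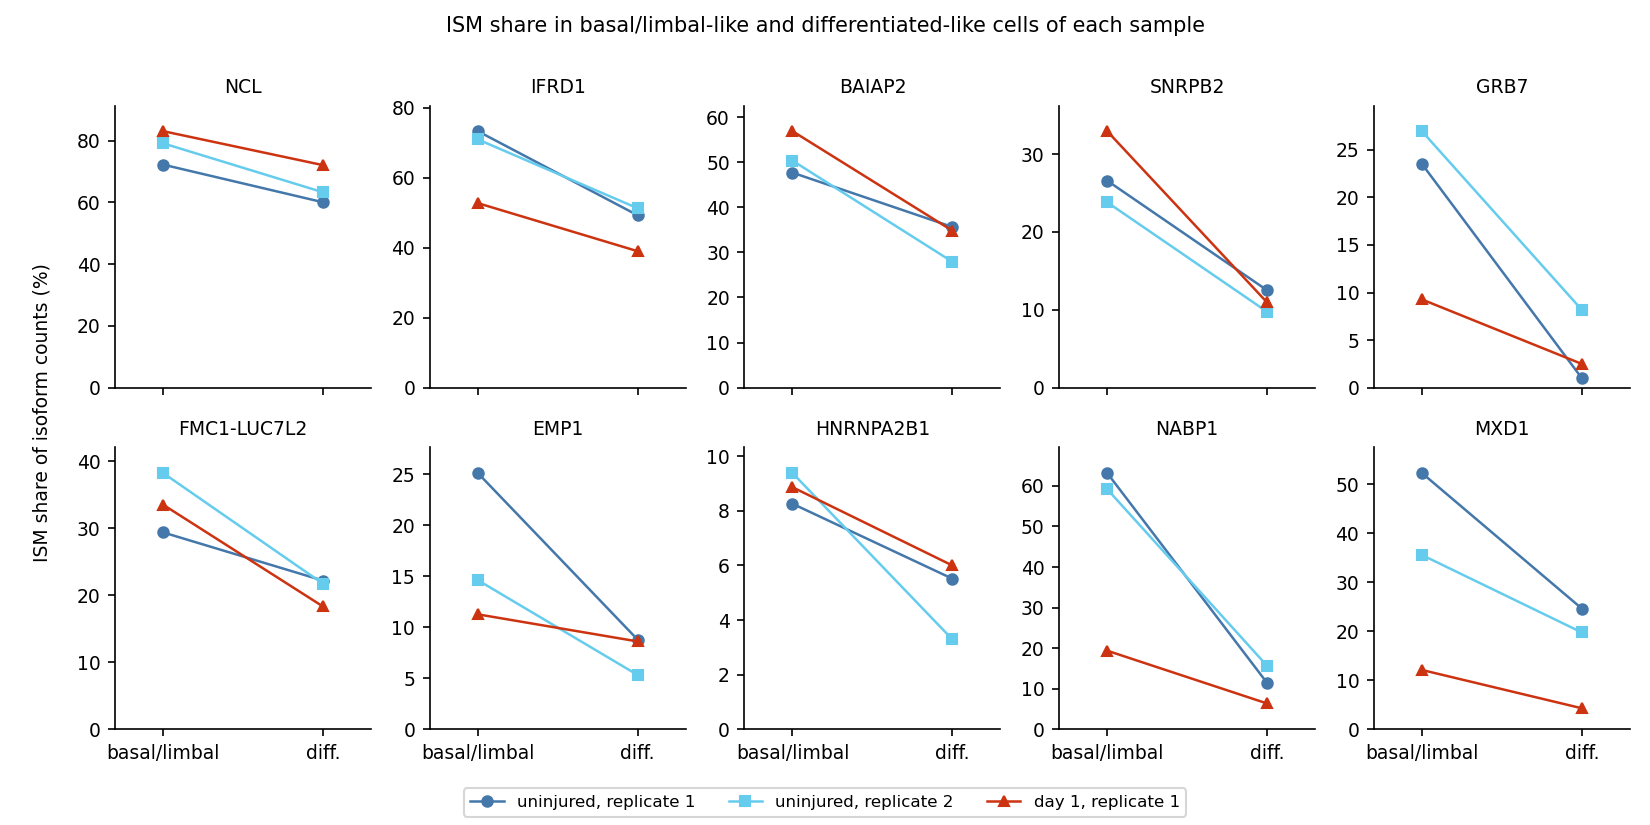
ISM share (y axis, %) in basal/limbal-like and differentiated-like (diff.) cells of each sample, for the 8 genes named by rank and for NABP1 and MXD1; lines join the classes of 1 sample. Every line falls from basal/limbal-like to differentiated-like cells, which the choice required of the 8 genes named by rank. In NCL the samples go from 72.3%, 79.2% and 83.1% to 60.1%, 63.3% and 72.1%.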

How the data were processed

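For each of 6 samples the authors deposited a gene table and an isoform table, in which each value is a whole-number count per cell barcode. Cell Ranger is named in the submitters' processing notes; an isoform caller, a genome build and an annotation were not given in the labels or headers. Isoform classes are those in the row names, and any collapsing of reads by molecule is not described. The total count per isoform table used was 2591000 to 3197566. Members and gene lists were chosen with earlier results of these data known.

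All barcodes were used, and counts were added up per sample, or per sample and class. ISM shares were compared with diffSpliceDGE in edgeR 4.0.16 (R 4.3.3) on 2 features per gene (ISM members and all other isoforms), with TMM scaling. Single isoforms and genes were tested with glmQLFTest after filterByExpr; the gene fit used all 6 samples. P-values were adjusted by Benjamini-Hochberg over all features tested, with a threshold of 0.05. The biological coefficient of variation was 0.166 for isoforms and 0.0651 for genes. Classes came from Leiden clusters (scanpy 1.11.5, resolution 0.5) named by marker lists; 8, 18 and 14 doublets called by Scrublet in the 3 samples were left out only in an alternative. Simulated 4-fold changes in the ISM counts of a gene were recovered for 77% of 100 changed genes, and 2-fold changes for 13% of 100. The fit held 1720 genes. The changed genes had at least 100 ISM and 100 other counts over the samples, so genes with fewer counts are not covered.

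Named genes were up to 12 with the most ISM counts, up to 12 among dominated genes, up to 8 per direction for each share test by size of the difference (at least 50 counts, samples separated), 5 isoforms per direction and up to 3 genes per list; some are left out of the text. Gene symbols matched a RefSeq table for 2699 of 2780 host genes with a symbol and for 0 of 234 with an identifier only. Alternatives were DESeq2 1.42.0, limma 3.58.1, other filters, scalings and barcodes, and samples left out.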

Additional observations from a re-analysis of the deposited data

Results flagged for a closer look

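The 3 isoform tables with Ensembl names were not used in the ISM comparisons, and they hold an ISM signal of their own. ISM rows made up 0.358% of isoform counts in the second day 1 sample (10197 counts), 0.258% in day 3 replicate 1 (5441 counts) and 0.276% in day 3 replicate 2 (5427 counts). They lay in 433, 433 and 434 genes, of which 0 carried a known gene name and 0 were genes with a member. In the tables with PB names all ISM rows held between 5.91% and 6.03% of counts. Both day 3 tables have Ensembl names and both uninjured tables PB names, so naming and time cannot be told apart between these groups.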

How the results depend on the processing

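The number of genes with a changed ISM share was 137 and fell to 23 with at least 10 counts of both features and to 22 with no filter beyond 1 count, and rose to 242 (112 higher, 130 lower, 86 of the 137 among them) with only isoforms listed in all 3 tables, a setting added after seeing the data. The other 5 settings gave 129 to 204. Called members numbered 46 with DESeq2 and 0 with no filter beyond 10 counts summed, in place of 1228. The 22 genes that differed between classes became 4 with no filter, 0 without the sample block, 0 with the limbal-marked cluster left out and 0 to 109 without 1 sample. Host genes called at day 1 numbered 1857 to 2011 without 1 sample and 1589 with DESeq2, in place of 2090. ISM shares of the 2 uninjured samples and day 1 were 6.03%, 5.94% and 5.91% with all ISM rows, 4.85%, 4.62% and 4.55% without the 10 leading genes and 5.65%, 5.52% and 5.42% with isoforms listed in all 3 tables. Where a value could be computed, no called share or called member changed sign; of the 2090 host genes 121 changed sign with library totals alone, 0 of them past the threshold there, and 0 in the other settings. For single named genes and the day 1 share, 574 values kept their side of the threshold, 67 lost it and 17 gained it, and the cause was not tested. Same-numbered samples did not deviate together in the gene tables (r of 0.04, 0.048 and 0.007), so the numbers were not taken as pairs; with replicate block 2036 host genes were called. No paired analysis was possible for the share and isoform tests because only 1 day 1 sample enters them. Without an uninjured replicate these tests leave no residual degrees of freedom, so leaving one out gave values only: 162 of 165 differences in ISM share of named genes kept their sign, and the 3 that did not, in HK2, PSME1 and DDX5, belong to genes whose share was not called. Depth limits genes with few isoform counts: 1215 host genes could not be tested for share.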

Other observations

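ISM shares of well-covered genes with a member were close between samples, with a Pearson r across 1095 genes of 0.994 between the uninjured samples and of 0.981 and 0.983 between each of these and the day 1 sample. Genes are not independent replicates, and the tables share their annotation and caller names. Among 30 splicing regulators, 25 had an ISM member, as did 20 of 30 very large proteins and 16 of 38 ribosomal protein genes (22 of which are in the tables).

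In the immediate early list no well-covered gene was dominated, and NR4A2, a nuclear receptor, came closest with 49.2%, 49.9% and 56.2%. FOS and EIF1 had very small ISM shares that were called higher in basal/limbal-like cells: FOS had 1.64%, 1.51% and 1.08% against 0.689%, 0.606% and 0.587%, and EIF1 had 2.21%, 1.09% and 0.788% against 0.604%, 0.335% and 0.287% (edgeR adjusted p = 0.00931 for both, with the same losses without a sample as the other class calls). S100A6, a calcium-binding protein, had 57.0%, 55.3% and 71.0% ISM (edgeR adjusted p = 0.0297), on isoform rows that held 1.67%, 1.67% and 1.70% of its gene counts. The spermidine acetyltransferase SAT1 had 5.54%, 5.01% and 2.45% on 12940, 15653 and 24898 isoform counts (edgeR adjusted p = 0.0057).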
